A study of Populus tremula x Populus alba with 4 samples.

Results

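Potri.T is the ID prefix of genes on genome scaffolds that were not placed on a chromosome. All rows whose ID starts with Potri.T were taken, which gave 1821 of the 41335 gene IDs, or 4.41%. They were measured by RNA sequencing of 4 bark libraries from INRA 717-1B4, a hybrid of Populus tremula and P. alba that is widely used for transformation. The groups were wild type (n = 2) and plants labelled MIR15 transgenic (n = 2), all of the same clone. The labels name no promoter, no target and no transgenic line behind MIR15, and do not say whether its 2 samples came from separate lines. They call the 2 samples of a group biological replicates. Library totals lay between 68453851 and 82789893 gene reads.

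A draft genome is built from sequenced fragments that are joined into chromosomes, and what cannot be joined remains as loose scaffolds. Such scaffolds are known to hold repeats, members of tandem gene families and second copies of a locus from the other parental chromosome set, all of which are hard to place because they resemble sequence elsewhere. A read that matches several places equally well cannot be given to one gene with certainty. IDs of this form belong to the gene models of Populus trichocarpa, a species other than the parents of this clone. The files pair no ID with a gene name or function, so members are given by ID, and the bark label could not be checked against tissue markers.

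Fewer of the scaffold IDs than of the other IDs were detected in bark. Detection was set at 10 or more total gene reads in each of the 4 libraries, and 1082 of the 1821 members, 59.4%, met it, against 71.6% of the 39514 other IDs. Of the rest, 188 members reached 10 reads in some libraries only, 301 had reads but never 10, and 250 had no read in any library. The limit of 10 reads cut through few members, since the lowest library stood at exactly 10 reads in 5 members and at exactly 9 in 9. In 50 members, one library had 10 or more reads and another had none.

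Taken library by library, 64.6% and 64.9% of members had 10 or more reads in wild-type replicates 1 and 2, and 63.6% and 64.4% in MIR15 replicates 1 and 2. Among the other IDs the shares were 75.4% and 75.2% in wild type and 74.5% and 74.6% in MIR15. The gap between members and other IDs was therefore -10.6 ± 0.335 percentage points (SD over 4 libraries) and had the same sign in each. The exact two-sided sign-flip test over the 4 libraries gave p = 0.13, the smallest value that 4 libraries allow. Between genotypes the share among members differed by -0.769 percentage points (MIR15 minus wild type). The exact two-sided permutation test of 2 against 2 libraries gave p = 0.33, which is the smallest it can give. The mean share among the other IDs was lower in MIR15 too, 74.5% against 75.3% in wild type. Both MIR15 libraries had fewer gene reads than both wild-type libraries, so depth and genotype cannot be told apart in these shares.

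**Figure D1:**
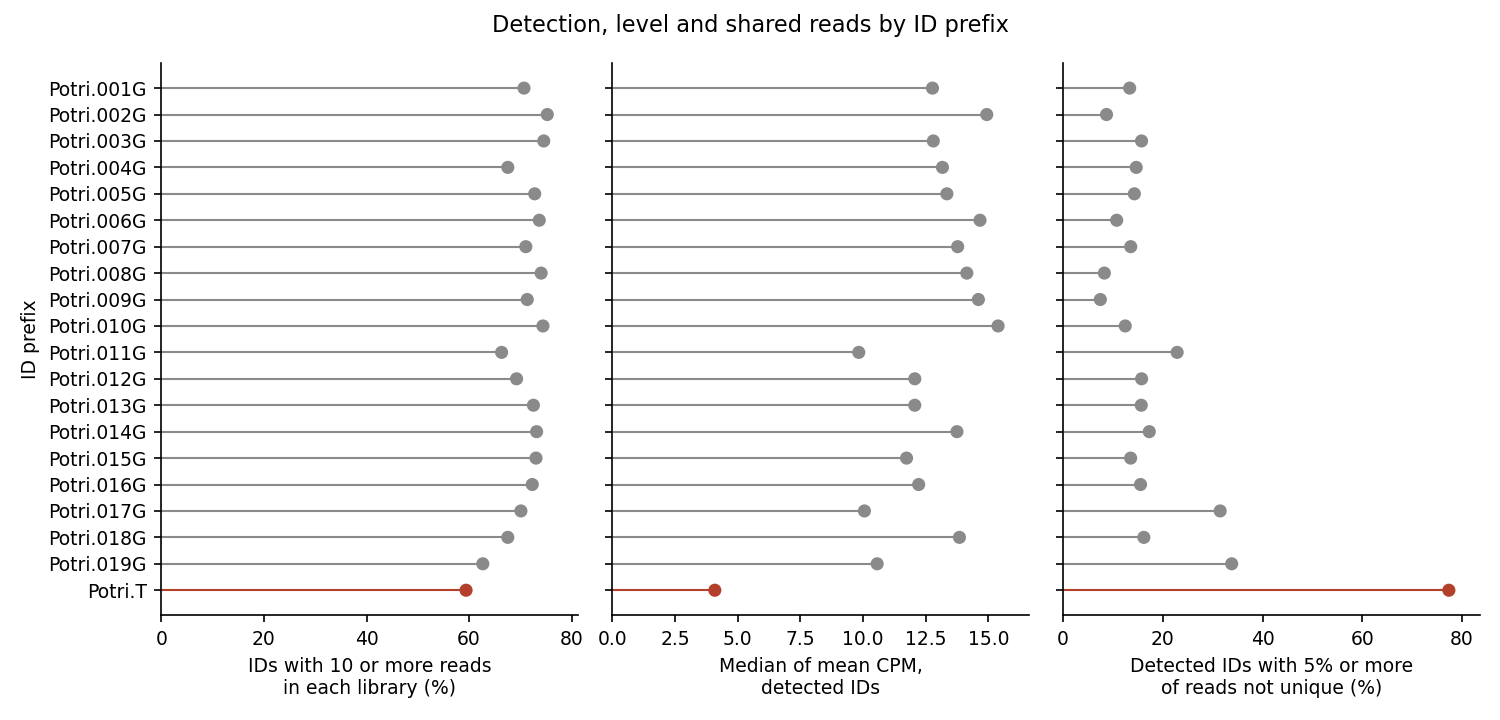
Values by ID prefix: the share of IDs with 10 or more reads in each library (%), the median of the mean level of detected IDs (CPM), and the share of detected IDs with 5% or more of their reads not unique (%). Each point is 1 prefix; Potri.T (red) lies at 59.4%, 4.09 CPM and 77.4%, outside the range of the 19 other prefixes (grey) in each panel.

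The same held when the other IDs were divided by their 19 numbered prefixes. Detected shares ran from 62.7% under Potri.019G to 75.3% under Potri.002G, so Potri.T lay below all 19. By contrast, IDs with no read in any library made up 13.7% of members, and Potri.019G had a slightly larger share, 13.9%.

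Detected members had lower read levels than other detected IDs. Levels are given as CPM, the total gene reads of an ID scaled to the library's size after TMM. No transcript lengths were used, so a level is reads per ID and not transcripts per length. The median over the 1082 detected members was 3.76 and 4.23 CPM in wild-type replicates 1 and 2, and 3.94 and 4.09 CPM in MIR15 replicates 1 and 2. For the other detected IDs it was 13.1 and 13.2 CPM in wild type and 12.8 and 13.2 CPM in MIR15. The difference of the medians was -9.06 ± 0.184 CPM (SD over 4 libraries) and lay between -9.30 and -8.86 CPM in single libraries (exact two-sided sign-flip test, p = 0.13, the smallest possible). The distribution was shifted along its length. Averaged over the libraries, the 10th percentile of members was 0.507 CPM against 0.825 CPM for other IDs, and the 90th percentile was 34.0 CPM against 77.6 CPM. Medians of the mean level under the 19 other prefixes lay between 9.83 CPM for Potri.011G and 15.4 CPM for Potri.010G, all above the 4.09 CPM of Potri.T.

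All 1821 members together took 1.69% and 1.79% of the gene reads in wild-type replicates 1 and 2, and 1.75% and 1.79% in MIR15 replicates 1 and 2. The mean share was 1.74% ± 0.0664 in wild type and 1.77% ± 0.0243 in MIR15 (SD, n = 2 each), and the libraries of the genotypes overlapped (exact two-sided permutation test, p = 1.00). A few members carried much of this. The 10 members with the highest level held between 21.3% and 23.5% of the member reads of a library, and the 100 highest held between 60.4% and 62.9%.

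Potri.T012500.1 had the highest level, with 826 and 846 CPM in wild-type replicates 1 and 2 and 1317 and 806 CPM in MIR15 replicates 1 and 2. MIR15 replicate 1 stood above the other libraries, and MIR15 replicate 2 below both wild-type libraries, so the groups overlapped. Potri.T011200.1 followed, at 529.6 and 616 CPM in wild type, while MIR15 stood at 488 and 871 CPM, again with the MIR15 libraries on either side of wild type. Potri.T012700.1, whose number is close to that of the first, stood at 353 and 358 CPM in wild type, and MIR15 at 565 and 359 CPM. In this member, too, MIR15 replicate 1 was the high library, by 1.57-fold over MIR15 replicate 2. The remaining members of the 6 with the highest level differed less between libraries. In Potri.T162900.1 the wild-type libraries had 441 and 391 CPM, and the MIR15 libraries 444 and 541 CPM. In Potri.T147900.1 these were 256 and 344 CPM against 268 and 300.4 CPM, and in Potri.T170200.1 they were 296 and 266 CPM against 236 and 285 CPM. None of these 6 passed the edgeR quasi-likelihood test of MIR15 against wild type (adjusted p = 1.00 for each).

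**Figure D2:**
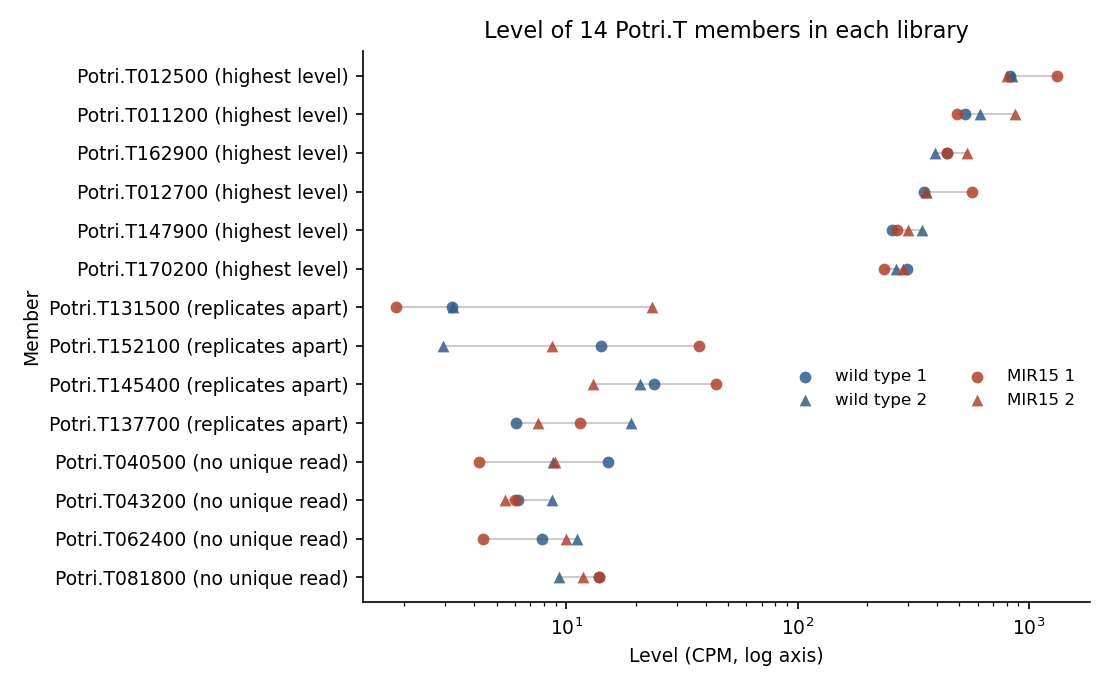
Level (CPM, log axis) of 14 Potri.T members in the 4 libraries: the 6 with the highest level, the 4 with the largest difference between libraries of one genotype and 4 without a single unique read. Blue is wild type, red is MIR15, circles are replicate 1 and triangles replicate 2; Potri.T131500 spans 1.84 to 23.5 CPM within MIR15, while its wild-type libraries lie at 3.22 and 3.24 CPM.

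Most detected members shared reads with other places. The files give the total and the unique gene reads of each ID, and the difference between them is called here reads that were not unique. Summed over detected members, 27.0% and 24.8% of reads were not unique in wild-type replicates 1 and 2, and 25.8% and 26.4% in MIR15 replicates 1 and 2. For the other detected IDs the shares were 6.10% and 5.82% in wild type and 4.92% and 5.34% in MIR15. The gap was 20.5 ± 0.964 percentage points (SD over 4 libraries), above 0 in each library (exact two-sided sign-flip test, p = 0.13, the smallest possible). The summed share of other IDs leans on a single ID, Potri.005G133100.1, which has most reads of all, and without it their mean share was 3.75%, not 5.55%. Under the prefix Potri.005G, which holds that ID, the summed share was 26.0%, as high as in Potri.T.

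Counted by ID instead of by read, all 19 other prefixes lay lower. The median detected member had 23.5% of its reads not unique, while the medians of the 19 other prefixes lay between 0.0202% and 0.155%. At least 5% of reads were not unique in 77.4% of detected members, against 7.47% under Potri.009G and 33.8% under Potri.019G, the lowest and highest of the others. At least 50% were not unique in 253 members, 23.4% of those detected, against 3.74% of other detected IDs. Only 78 detected members, 7.21%, had none, where 35.7% of the other detected IDs had none. The members hold 4.41% of IDs and on average 1.76% of gene reads, but 7.78% of all reads that were not unique, or 11.2% without Potri.005G133100.1.

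**Figure D3:**
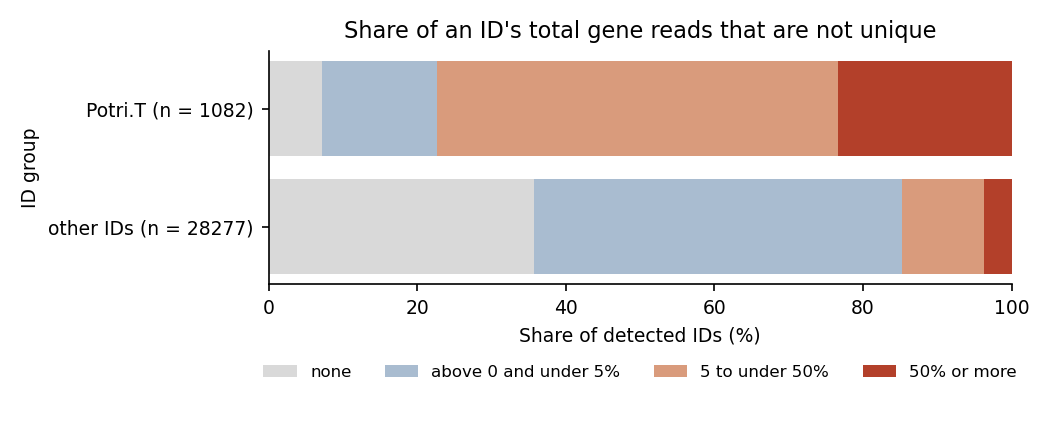
Detected IDs (share of IDs in %, horizontal axis) divided by the share of their total gene reads that were not unique, for 1082 Potri.T IDs and 28277 other IDs. The classes with 5% or more make up 77.4% of the Potri.T bar.

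At the far end, 24 detected members had no unique read in any library, compared with 45 of the 28277 other detected IDs. Of the 24 members, 4 with a mean level of at least 5 CPM are given, the first by number. How many of the 24 reach that level was not counted. Potri.T081800.1 had 1138, 730, 932 and 826 reads in wild-type replicates 1 and 2 and MIR15 replicates 1 and 2, and Potri.T040500.1 had 1250, 686, 283 and 626. Potri.T062400.1 had 646, 870, 295 and 698 reads, and Potri.T043200.1 had 508, 680, 403 and 382. As none of these reads was unique, the totals depend on how such reads were shared out, which the files do not say. In unique reads, 1009 of the 1082 detected members still had 10 or more in each library. High levels did not go with a low share: of the 30 detected members at 100 CPM or more, 90.0% had at least 5% of reads not unique, against 73.4% of the 214 members under 1 CPM. In the other IDs the order was the opposite, 7.87% at 100 CPM or more and 21.9% under 1 CPM.

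Summed over detected members, the share of reads that were not unique did not differ between genotypes beyond the spread of libraries. It was 25.9% ± 1.53 in wild type and 26.1% ± 0.409 in MIR15 (SD, n = 2 each), and the exact two-sided permutation test gave p = 1.00. The median share per detected member was 22.8% ± 0.439 in wild type and 23.7% ± 0.741 in MIR15 (SD, n = 2 each). For this median the libraries of the genotypes did not overlap (exact two-sided permutation test, p = 0.33, the smallest possible). Members held a larger part of all reads that were not unique in MIR15, 8.40% ± 0.220, than in wild type, 7.15% ± 0.0835 (SD, n = 2 each; exact two-sided permutation test, p = 0.33, the smallest possible). Without Potri.005G133100.1 the parts were 11.1% ± 0.183 in MIR15 and 11.3% ± 0.837 in wild type (SD, n = 2 each), and the libraries of the genotypes overlapped.

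Scaffold IDs varied more between libraries of one genotype than other IDs did, and at matched levels the gap depended on the genotype and on the measure. The spread was measured as the log2 ratio of CPM between replicates 1 and 2, with a prior count of 2 added. Its root mean square over detected members was 0.59 in wild type and 0.55 in MIR15, against ranges over the 19 other prefixes of 0.43 to 0.53 in wild type and 0.44 to 0.59 in MIR15. Potri.T thus lay above all 19 in wild type, while in MIR15 2 prefixes lay above it, Potri.013G at 0.59 and Potri.019G at 0.57. Replicates were more than 2-fold apart in 104 detected members (9.61%) in wild type and in 86 (7.95%) in MIR15. Over all detected IDs the shares were 5.07% and 4.78%. With 2 genotypes, no test of these spreads over libraries was made.

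Up to 100 CPM the spread was smaller at higher levels, and members have lower levels, so it is also given within bins of level. In wild type, the median size of the log2 difference was 0.37 in members and 0.31 in other IDs at 1 to 5 CPM. It was 0.26 and 0.20 at 5 to 20 CPM, and 0.23 and 0.16 at 20 to 100 CPM. In MIR15 the same bins gave 0.34 and 0.33, 0.21 and 0.22, and 0.17 and 0.17. By this median, members were thus more spread than other IDs between the wild-type libraries and close to them between the MIR15 libraries; the difference between genotypes was not tested. The root mean square, which weights the IDs farthest apart, gave a gap in MIR15 too from 5 CPM up: 0.44 in members and 0.40 in other IDs at 5 to 20 CPM, 0.36 and 0.30 at 20 to 100 CPM, and 0.42 and 0.31 at 100 CPM or more. At 1 to 5 CPM it was 0.58 and 0.61. In wild type it was 0.64 and 0.57, 0.46 and 0.40, and 0.40 and 0.32 from 1 to 100 CPM, and 0.28 and 0.37 above. By the median at 100 CPM or more, where 30 members remain, members lay below other IDs in wild type (0.12 against 0.17) and above them in MIR15 (0.20 against 0.18).

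**Figure D4:**
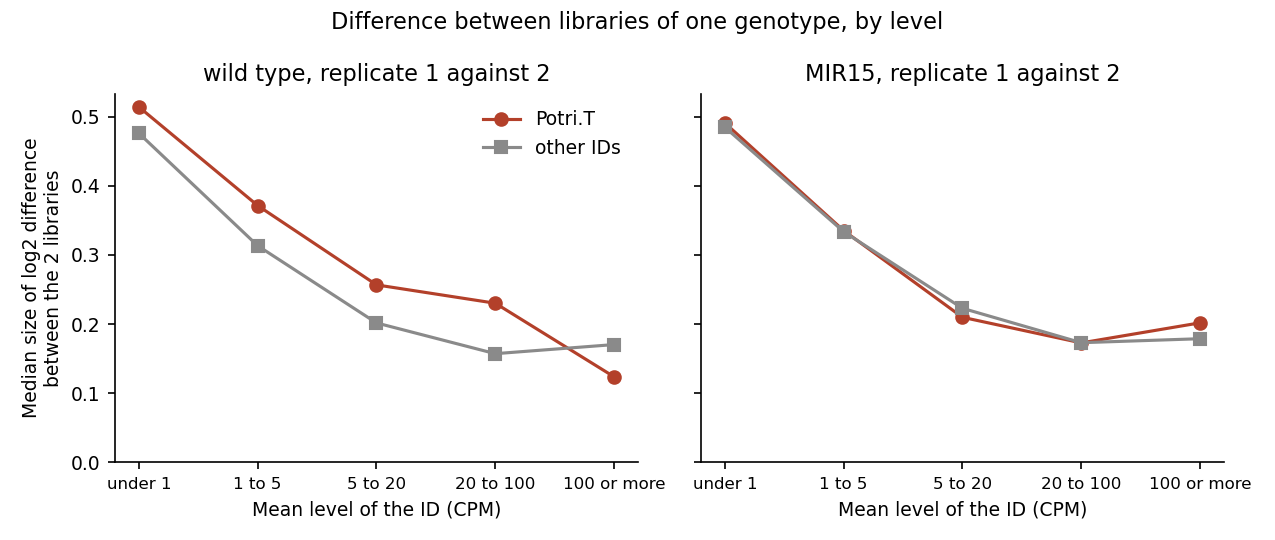
Median size of the log2 difference between the 2 libraries of one genotype (vertical axis) by mean level of the ID in CPM (horizontal axis), for Potri.T (red circles) and other IDs (grey squares). Below 100 CPM, Potri.T lies above the other IDs in wild type, for example 0.23 against 0.16 at 20 to 100 CPM, and close to them in MIR15.

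The order of members by shared reads also depended on the measure. By root mean square, those with most shared reads differed most between the wild-type libraries. Where at least 50% of reads were not unique, it was 0.75 in wild type and 0.58 in MIR15, and where the share was 5% to under 50% it was 0.52 and 0.51. Above 0% and under 5% it was 0.55 and 0.63, the largest in MIR15, and with none it was 0.55 and 0.58. By the median size, the members with no shared reads differed most in wild type, 0.40 against 0.38 at 50% or more. These 2 classes also differ in level, with medians of 1.73 and 4.17 CPM, and the classes were not matched for level. For other IDs the root mean square was 0.71 and 0.73 at 50% or more and 0.52 and 0.55 at 5% to under 50%. The wild-type libraries also differed in direction: 472 of 1082 members (43.6%) were higher in replicate 1, with a median log2 difference of -0.07, against 50.4% of other IDs. In MIR15, 47.0% of members were higher in replicate 1.

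Single members show that a large spread came with and without shared reads. Potri.T131500.1, with 0.0873% of its reads not unique, had 265 and 254 reads in wild-type replicates 1 and 2 and 124 and 1649 in MIR15 replicates 1 and 2. The MIR15 libraries lay on either side of wild type, 12.6-fold apart. In Potri.T145400.1, where 99.9% of reads were not unique, MIR15 replicates 1 and 2 had 2984 and 915 reads, and wild type had 1982 and 1630. In Potri.T137700.1, with 85.5% of reads not unique, the wild-type libraries were the ones apart, at 502 and 1489 reads, and MIR15 had 768 and 527. In Potri.T152100.1 both genotypes split widely, and in the same direction by replicate number. Wild type counted 1159 and 231 reads, and MIR15 2531 and 609. Replicate 1 was 4.74-fold above replicate 2 in wild type and 4.32-fold in MIR15.

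The series set MIR15 against wild type, and no scaffold ID passed the test. Of the 1821 members, 1187 passed the filter on low counts and were tested with edgeR's quasi-likelihood test, fitted and adjusted over all 30975 tested IDs. None had an adjusted p under 0.05, and the smallest was 1.00. The background was 1 called ID, or 0.00323% of those tested, so a count of 0 among 1187 is near it. DESeq2 also called no member, with a background of 0.0376%, and its smallest adjusted p among members was 0.0659. At an unadjusted p under 0.05 it gave 46 of 1571 members, 2.93%, with a background of 2.25%.

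At an unadjusted p under 0.05, edgeR gave 33 members, 17 higher (background 1.35%) and 16 lower (background 1.11%) in MIR15. This is 2.78% of the members tested, near the background of 2.47% over all tested IDs. The groups did not overlap in 329 members, 167 higher and 162 lower, or 27.7% against a background of 25.1%. The median log2 fold change of members was 0.0018, compared with -0.00083 over all tested IDs. Fold changes were wider among members: 54, or 4.55%, were beyond 2-fold in either direction, compared with 2.73% of all tested IDs, and the spread between replicates was wider too; its part in this was not tested. In bulk tissue, fewer cells of a type and less RNA per cell cannot be told apart. The count of 33 depended on the libraries used. It was 114 (9.24%, background 6.35%) without wild-type replicate 1, 36 (2.92%, background 2.02%) without wild-type replicate 2, 53 (4.26%, background 2.77%) without MIR15 replicate 1 and 72 (5.82%, background 4.24%) without MIR15 replicate 2. None of these settings called a member, where the backgrounds were 0.0252% and 0.00316% without wild-type replicates 1 and 2, and 0 IDs without either MIR15 replicate. The count was 77 (6.49%, background 5.03%) with replicate number as a block, 50 (3.18%, background 2.65%) with no filter and 10 (2.07%, background 1.94%) at a mean of at least 5 CPM. The block was the one setting that called members, 5 of 1187, with a background of 0.387%.

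**Figure D5:**
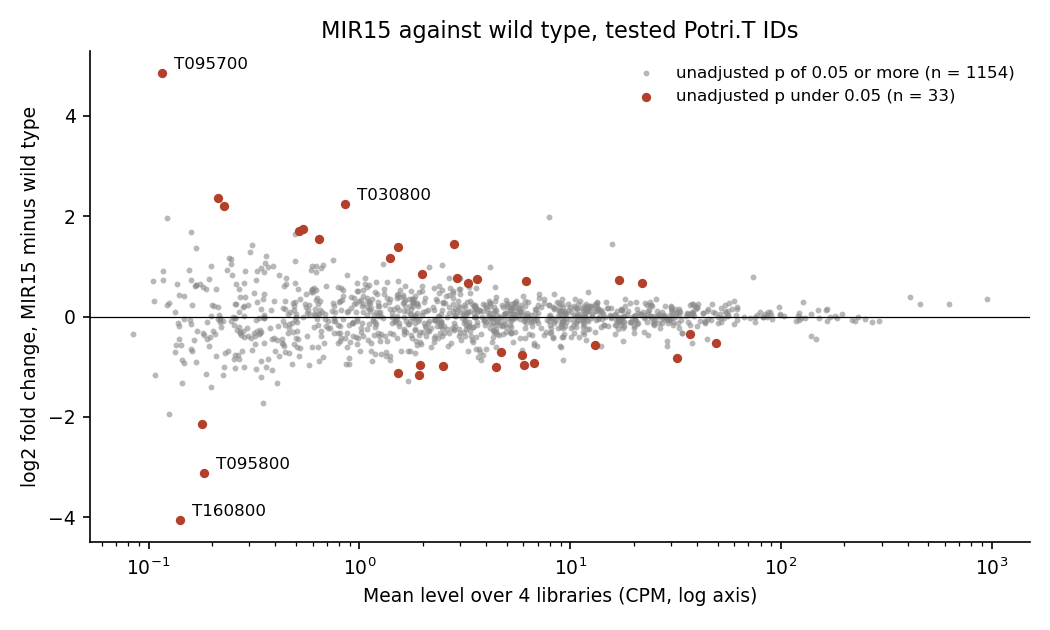
Log2 fold change of MIR15 over wild type (vertical axis) against the mean level over the 4 libraries (CPM, log axis) for the 1187 tested Potri.T IDs. Red points are the 33 with an unadjusted p under 0.05 in edgeR, none of which passed the adjusted test; the labelled IDs are the 2 with the smallest p in each direction among those with groups that do not overlap.

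The higher member with the smallest p was Potri.T030800.1, with 25 and 23 reads in wild-type replicates 1 and 2 and 88 and 106 reads in MIR15 replicates 1 and 2. Both MIR15 libraries lay well above both wild-type libraries. Its wild-type level was 0.298 ± 0.00714 CPM, and its level in MIR15 was 1.41 ± 0.145 CPM (SD, n = 2 each). The log2 fold change was 2.24 with an SE of 0.42, and edgeR gave an adjusted p of 1.00. The ratio of MIR15 to wild type in summed reads was 4.73, with an exact 95% interval from 3.44 to 6.64 that covers counting error only. Unique reads ran the same way, with 15 and 16 in wild type and 63 and 79 in MIR15. With DESeq2 its adjusted p was 0.0659, and over all settings tried it ran from 0.0440 (edgeR with replicate number as a block) to 1.00.

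Of 1571 members with a read, 3 had at least 10 in both libraries of one genotype and at most 3 in each of the other. Over all 37220 IDs with a read there were 24 such IDs, or 0.0645%, a smaller share than among members. The other IDs had 21 among 35649 with a read. The difference in share rests on 3 members and was not tested. The 3 members are the other labelled points, and all had few reads. Potri.T095700.1 had 1 and 0 reads in wild-type replicates 1 and 2 and 13 and 18 in MIR15 replicates 1 and 2, a ratio of MIR15 to wild type of 36.3 (exact 95% counting interval, 6.05 to 1480). Its neighbour by number, Potri.T095800.1, went the opposite way, from 28 and 25 wild-type reads to 3 and 2 MIR15 reads, a ratio of wild type to MIR15 of 9.05 (exact 95% counting interval from 3.64 to 29.0). Of the reads of these neighbours, 71.9% and 75.9% were not unique. In unique reads alone, Potri.T095700.1 had none in wild type and 5 and 4 in MIR15, and Potri.T095800.1 had 8 and 6 in wild type and none in MIR15. For Potri.T160800.1, wild type counted 23 and 20 reads and MIR15 0 and 2, a ratio of wild type to MIR15 of 18.4 (exact 95% counting interval from 4.78 to 156). The sizes of 2 of them depended on single libraries, and a fitted value against a group without reads depends on the prior count and is no bound. The fitted log2 fold change of Potri.T095700.1, 4.85, was 7.03 without wild-type replicate 1, where no wild-type read remains, and 4.04 without wild-type replicate 2. That of Potri.T160800.1, -4.05, was -3.15 without MIR15 replicate 1 and -7.35 without MIR15 replicate 2, where no MIR15 read remains. In edgeR, all 3 had an adjusted p of 1.00, with unadjusted p of 0.00360, 0.00454 and 0.00636 in the order given. These 3 were picked for their difference between genotypes, and passed the filter on low counts through the group where they were high. Their unadjusted p and counting intervals are therefore no separate support for a difference.

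Members also differed among themselves along their numbering, which runs without gaps from 100 to 182100 in steps of 100. Nothing in the files says which numbers share a scaffold. In 10 sections of near-equal size, the first, numbers 100 to 18300, had the lowest median share of reads not unique, 6.81%, and the highest median level, 8.35 CPM. In the other sections the median share lay between 12.0% and 35.1%, and the median level between 2.55 and 4.98 CPM. The last section, from 164000 on, had the lowest share of detected IDs, 49.5%, while the others had 55.5% to 68.1%. The median log2 difference of MIR15 minus wild type stayed between -0.03 and 0.06 in every section.

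Runs of members with a common direction were short between genotypes and between replicates. Among the members with a mean of at least 1 CPM, taken in order of number, the longest run with values of one sign in MIR15 minus wild type had 10 IDs in each direction. Between the wild-type libraries the longest run had 11 IDs in each direction, and between the MIR15 libraries it had 8 IDs above 0 and 13 below. Medians over windows of 19 members lay between -0.20 and 0.23 for MIR15 minus wild type. They lay between -0.51 and 0.28 for the wild-type replicates and between -0.38 and 0.25 for the MIR15 replicates, where single libraries are compared and not means of 2. Of 490 pairs of members with successive numbers, 53.7% had the same sign in MIR15 minus wild type, close to the 52.9% of 16734 such pairs among the other IDs. Between replicates, pairs of members had the same sign more often than pairs of other IDs. The shares were 58.8% against 52.6% in wild type and 56.1% against 52.5% in MIR15, and these differences were not tested.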

How the data were processed

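Per the file headers, the authors deposited 2 read counts per ID from CLC, unique gene reads and total gene reads, and a DESeq normalised signal. The deposited signal was checked and equals the total reads times 1 constant per library. Not given in the sources used here are the aligner's settings, the genome build, the annotation and the treatment of reads that match several genes. Groups and replicate numbers follow the sample titles; the MIR15 column headers carry other numbers. The edgeR and DESeq2 p-values set the genotype difference against the spread between these samples, estimated with help from the other tested IDs. The exact tests over libraries have a smallest possible p that is fixed by the number of libraries. As the labels do not say whether the MIR15 samples are separate lines, spread between lines may not be covered.

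The test across all 41335 IDs used their total reads, in edgeR 4.0.16 under R 4.3.3 (filterByExpr, TMM, quasi-likelihood F test, two-sided, genotype as the sole term, Benjamini-Hochberg adjustment over 30975 IDs, threshold 0.05), and with DESeq2 1.42.0 as an alternative. The SE was derived from the F statistic. The fit was tested on simulated data. Out of 50 IDs given a 2-fold difference, it called 9. At 4-fold it called 39 out of 50, at 16-fold 49 and at 64-fold 48. Its 157 calls included 12 false ones. Most 2-fold differences were thus missed in the simulation, so the lack of calls among members says little about differences of that size. The simulation set its own spread and number of changed IDs, and drew its IDs from all levels. Its recovery at larger folds may thus not hold for members, whose levels were lower. In the real data Potri.T030800.1, at a ratio of 4.73, was not called by the main edgeR fit. Per-library shares were compared with exact tests in Python 3.11.15. The median log2 fold change of all tested IDs moved by at most 0.02 under other scalings. The prefix rule, lists and tests were chosen with earlier results of these data known. Named members are those called, those with the smallest p in each direction and groups that do not overlap, and the 6 highest in level. At 5 CPM or more, they include the 4 with replicates farthest apart and 4 with fewest unique reads, the first by number where tied. Members with 10 or more reads in one genotype and at most 3 in the other complete the list. As the IDs carry no names, only 2 in each direction are printed. Lists by product name could not be filled, and no sequences were used.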

Additional observations from a re-analysis of the deposited data

How the results depend on the processing

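In every setting tried, the scaffold IDs had a lower detected share and a lower median level than the other IDs. Their share of reads not unique was larger in every setting. The spread between replicates, averaged over genotypes and not matched for level, was larger too. Within bins of level, its order depended on the genotype and on the measure. The sizes moved with the setting. The detected share was 59.4% with 10 reads in each library, 70.6% with 1 read (other IDs 79.0%), 47.6% with 50 reads (63.3%) and 55.4% in unique reads (70.7%), and between 59.8% and 61.1% on leaving out a library. The mean of the median levels was 4.01 CPM, 2.67 CPM with a limit of 1 read (10.4 CPM) and 3.06 CPM in unique reads (13.4 CPM); leaving out libraries gave 3.81 to 4.03 CPM. The share of gene reads was 1.76%, 1.38% in unique reads, 1.66% without the member with most reads and 1.74% to 1.78% without single libraries. The share of reads not unique was 26.0%, 23.3% as a median over IDs (0.00390%), 27.1% without the member with most reads and 25.7% to 26.4% without single libraries. The spread between replicates, averaged over genotypes, was 0.57 as a root mean square, 0.49 with a limit of 50 reads (0.39) and 0.29 as a median size (0.22). The count of called members was 0 in all settings but the replicate block.

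Once the replicate block was added (the number in the titles), edgeR called 5 members, 4 higher and 1 lower, among them Potri.T030800.1 (adjusted p = 0.0440) and Potri.T152100.1 (adjusted p = 4.85e-05). The weight given to the spread of the other IDs (prior degrees of freedom) was 5.28 without the block and 27.9 with it. Its part in these calls was not tested. Over all tested IDs with a mean of at least 1 CPM, deviations of same-numbered libraries correlated at 0.25. As the labels tie no meaning to the number and there are 2 pairs only, it was not used as a pairing. Without replicate block, Potri.T152100.1 had a log2 fold change of 1.44 (0.03 without MIR15 replicate 1, 2.97 without wild-type replicate 1). The unadjusted count of 33 was 77 with the block, 50 with no filter and 10 at a mean of 5 CPM.

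Of 186 values of named members under alternatives, 10 turned in sign, all without 1 library and none with a call; the cause was not tested. The log2 fold changes without single libraries ran from -0.0521 to 0.66 for Potri.T012500.1, from -0.23 to 0.60 for Potri.T011200.1, from -0.27 to 0.15 for Potri.T147900.1, from -0.25 to 0.0194 for Potri.T170200.1, from -0.80 to 2.87 for Potri.T131500.1, from -0.78 to 0.99 for Potri.T145400.1, from -1.0 to 0.64 for Potri.T137700.1, from -1.11 to 0.0751 for Potri.T062400.1 and from -0.10 to 0.46 for Potri.T081800.1. Depth limits the members with few reads: 301 had reads but never 10 in a library.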
